A study of Mus musculus with 5 samples.

Results

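Chemokines, interleukins and their receptors were examined in liver tumors driven by Akt and Notch, with and without late overexpression (OE) of Prox1. Members were all genes whose mouse symbol begins with Ccl, Cxcl, Ccr, Cxcr or Il followed by a digit and whose mean over the 5 libraries was at least 10 normalized counts. The symbol matched 136 genes of the 55397 listed, of which 84 reached that mean and 52 did not, and a further 2 that matched were left out by the rule. The rule used the mean level and not the difference between groups, and 17105 genes of the whole table reached the same mean and were tested together. The name pattern also took in a few genes that are not signaling proteins of these families, such as Il4i1, an enzyme that oxidizes amino acids.

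Chemokines are small secreted proteins that draw cells along a gradient by binding G protein-coupled receptors, and they are grouped as CC or CXC by the spacing of their first cysteines. Interleukins signal through receptor chains that recruit either MYD88 and NF-κB (the IL-1 and IL-18 receptors), ACT1 and NF-κB (the IL-17 receptors) or JAK kinases and STAT factors (most others). In the liver, hepatocytes, bile duct epithelium, Kupffer cells, sinusoidal endothelium and stellate cells all make some of these proteins, and lymphocytes and myeloid cells carry many of the receptors.

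The interferon-inducible chemokine Cxcl9 rose 5.20-fold (2 to the power of its log2 fold change) in Prox1 OE tumors, and its receptor Cxcr3, the related ligand Cxcl11 and the T cell attractant Ccl5 rose with it, while Cxcl10 of the same family did not pass the test. The mucosal chemokine Ccl20, the IL-17 receptor chains Il17re and Il17rd and the IL-23 subunit Il23a fell. Within the IL-1 system, the receptor antagonist Il1rn and the signaling receptor Il1r1 fell, whereas the agonist Il1a and the co-receptor chain Il1rap rose. The neutrophil attractants Cxcl1, Cxcl2 and Cxcl5 and their receptor Cxcr2 were not called in either direction with the size factors used.

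All tumors arose in female C57BL/6N mice injected hydrodynamically through the tail vein at 8 weeks of age with 2 mL of plasmid solution. Every mouse received 4 µg of CMV-driven Sleeping Beauty transposase and 10 µg of transposon plasmids that express Akt and the Notch intracellular domain (NICD) from the EF1a promoter, the latter linked to rtTA, the factor that makes a Tre promoter respond to doxycycline. Control mice (2 libraries) also received a Tre-driven GFP plasmid (EV), and Prox1 OE mice (3 libraries) received FLAG-tagged mouse Prox1 and GFP behind the same promoter. Both groups ate food with 6.25% doxycycline from day 21, so that Prox1 was induced between weeks 3 and 4, and tumors were dissected after a week of induction or when a humane endpoint was reached, without a statement of which applied to which tumor. The labels do not say whether libraries of a group came from separate mice, so that p-values measure the spread between these samples, which may be technical in part. Induction needed plasmid uptake and rtTA in the same cell, and tumors were dissected rather than sorted.

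The normalized count used throughout is the number of reads of a gene divided by a size factor of its library. Libraries held 48740863 to 56629477 reads on genes, and 1 read was worth 0.822 to 1.18 normalized counts. Prox1 itself was at 4153 and 4664 normalized counts in Control replicates 1 and 2 and at 48090, 11113 and 8231 in Prox1 OE replicates 1, 2 and 3, all higher than in Control, with a log2 fold change of 1.90 (SE 0.66) that missed the threshold at an adjusted p of 0.061. It ran from 1.12 without Prox1 OE replicate 1 (adjusted p = 0.00556) to 2.39 without Prox1 OE replicate 3 (0.0325), and edgeR called it as well (2.36, adjusted p = 0.0465). The labels describe transformed hepatocytes, and both hepatocyte and bile duct markers were abundant in every library, but markers of T cells, Kupffer cells, endothelium and fibroblasts were present as well. Hepatocyte markers summed to 665267 to 1108230 normalized counts in Control and 2323870 to 3691020 in Prox1 OE. These are bulk samples, in which fewer cells of a type and less RNA per cell cannot be told apart. When libraries were scaled by their total reads instead, the all-gene median of the log2 fold change moved from -0.016 to -0.44, and the changes below are given relative to the size factors.

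A gene was called when its Benjamini-Hochberg adjusted p over all 17105 genes, from limma on log2(normalized count + 1), was under 0.05. Of the 84 members, 29 were called (34.5%), against a background of 33.3% of all genes tested. Higher calls numbered 17 (20.2% of members, background 17.1%) and lower calls 12 (14.3%, background 16.2%), so that the shares were near those of genes in general. Scaling by total reads gave 10 higher and 25 lower members in place of 17 and 12. Of the called members, 13 had a log2 fold change of 1 or more in size, 7 upward and 6 downward, against a background of 13.9% of all genes. The 2 groups did not overlap for 52 members, against a background of 63.3%, and 23 of those 52 were not called. The median log2 fold change was 0.17 for members and -0.016 for all genes, and the median absolute change was 0.743 against 0.422. This comparison was not matched for level, and 35 of the 84 members had a mean under 100 normalized counts. Leaving out Control replicate 1 left 3 higher and 5 lower members, leaving out Control replicate 2 left 5 and 8, and leaving out a Prox1 OE library left 12 to 22 higher and 10 to 18 lower. The 6 members called in every such fit were Cxcl9, Il1rn, Il18, Il1r1, Il17rd and Il17re, and all 29 kept their sign under every alternative tried. Members without a call were less settled: total-read scaling added 13 lower calls (Ccl12, Ccr1, Cxcl1, Cxcl10, Il11, Il17rb, Il1r2, Il1rl2, Il25, Il33, Il34, Il6st and Il7), and leaving out Prox1 OE replicate 1 added 11 calls (Ccl12, Ccl22, Ccr1, Ccr7, Il15ra, Il1rl2, Il2rb, Il33, Il34, Il6ra and Il6st).

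**Figure D1:**
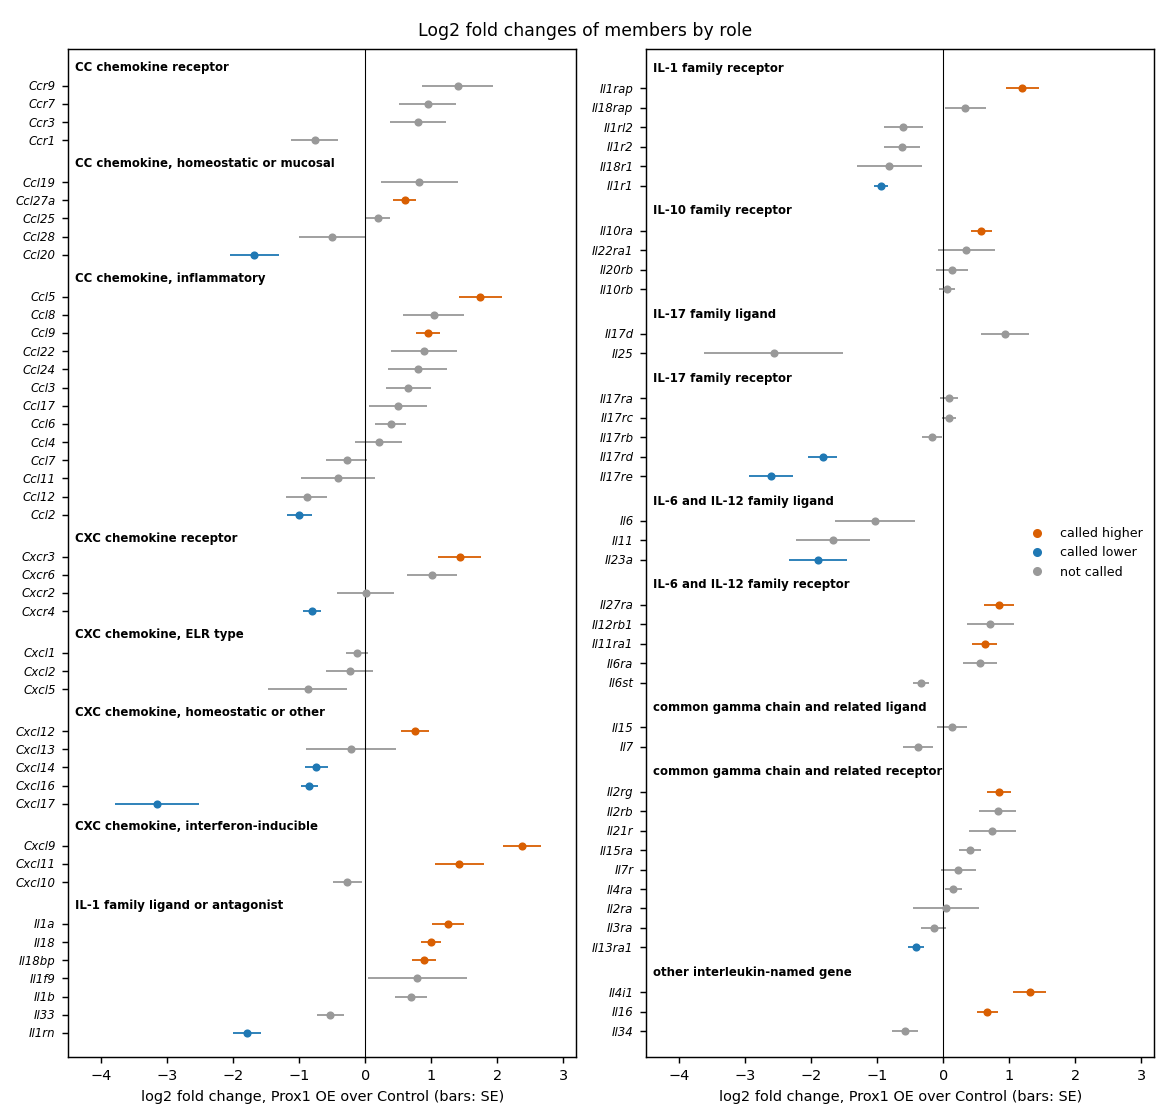
Log2 fold change of Prox1 OE over Control with its standard error (horizontal axis) for members grouped by role, with orange for called higher, blue for called lower and gray for not called. Most role groups hold members on both sides of 0, from Cxcl17 at -3.15 to Cxcl9 at 2.38.

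Cxcl9, Cxcl10 and Cxcl11 are induced by interferons and share the receptor CXCR3, which marks activated T cells and NK cells. Their genes lie side by side on chromosome 5, and the promoters of Cxcl9 and Cxcl10 are shown because these neighbors behaved differently. Each sequence is a RefSeq window of build GRCm38.p6, read 5′ to 3′ on the strand of the gene, from 250 bases before the annotated start site to 50 after it. Capitals mark letters that match an interferon-stimulated response element (ISRE, GAAANNGAA) or a κB site, searched on both strands, and positions are counted with the start site as 0. The Cxcl9 window is at chr5:92328030-92328329, minus strand, and the Cxcl10 window is at chr5:92348840-92349139, minus strand.
Cxcl9: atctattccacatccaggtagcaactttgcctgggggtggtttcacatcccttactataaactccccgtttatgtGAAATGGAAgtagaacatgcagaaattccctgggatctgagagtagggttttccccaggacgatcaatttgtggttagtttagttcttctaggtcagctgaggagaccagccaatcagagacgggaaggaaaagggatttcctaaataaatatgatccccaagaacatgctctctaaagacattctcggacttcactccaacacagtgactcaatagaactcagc
Cxcl10: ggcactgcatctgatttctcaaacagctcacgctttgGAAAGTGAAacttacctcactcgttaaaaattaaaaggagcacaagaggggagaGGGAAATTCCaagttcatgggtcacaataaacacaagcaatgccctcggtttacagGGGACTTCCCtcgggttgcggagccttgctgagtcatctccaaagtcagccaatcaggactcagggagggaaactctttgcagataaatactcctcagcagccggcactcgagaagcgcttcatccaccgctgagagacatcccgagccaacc
The Cxcl9 window held 1 ISRE match at -175 to -167. The Cxcl10 window held an ISRE match at -213 to -205 and κB matches at -159 to -150 and -103 to -94. A match describes these letters and does not show that a factor binds there.

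Cxcl9 was at 315 and 238 normalized counts in the Control libraries and at 1055, 1302 and 2117 in the Prox1 OE libraries. The lowest Prox1 OE value was more than 3 times the higher Control value, and the log2 fold change was 2.38 (SE 0.29, adjusted p = 0.00266). Cxcl11, which GENCODE lists as a polymorphic pseudogene, stood at 28.8 and 65.3 in Control and at 104, 112 and 141 in Prox1 OE. Its log2 fold change was 1.42 (SE 0.37, adjusted p = 0.0251), the groups did not overlap, and the call was lost without Control replicate 1 (log2 fold change 0.85, adjusted p = 0.194), Prox1 OE replicate 2 (0.0721) or Prox1 OE replicate 3 (0.0701). Cxcl10 stood at 681 and 423 in Control and at 439, 426 and 471 in Prox1 OE, so that its groups overlapped, with a log2 fold change of -0.27 (SE 0.22, adjusted p = 0.364). That value was 0.072 without Control replicate 1, and under scaling by total reads Cxcl10 was called lower (-0.70, adjusted p = 0.0376). The ratio of Cxcl9 to Cxcl10 normalized counts was 0.462 and 0.563 in Control and 2.41, 3.06 and 4.49 in Prox1 OE. An exact permutation test of the log ratio, two-sided, gave p = 0.1, the smallest that 2 against 3 libraries allow. Per length, in TPM (reads over exon length, scaled to the same sum in every library), Cxcl9 was at 6.91 and 4.85 TPM in Control and at 15.8, 18.4 and 25.7 in Prox1 OE, and Cxcl10 was at 20.0 and 11.5 and at 8.79, 8.06 and 7.66. Cxcl9 was therefore below Cxcl10 in both Control libraries and above it in all Prox1 OE libraries. This ratio and those below were chosen after the values had been seen, and since genes differ in length only their difference between groups is read, not their height.

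Cxcr3 was at 18.9 and 22.0 normalized counts in Control and at 44.0, 64.9 and 63.7 in Prox1 OE. The groups did not overlap, with a log2 fold change of 1.43 (SE 0.33, adjusted p = 0.0163), and the call was lost without Control replicate 1 (adjusted p = 0.122), Control replicate 2 (0.0735) or Prox1 OE replicate 2 (0.0573). T cell markers moved alongside: 5 of 8 were called higher (Cd2, Cd8a, Cd3g, Cd3d and Cd3e) and none lower, and their summed level was 424 to 522 in Control and 703 to 927 in Prox1 OE. Of 5 NK cell markers tested, Prf1 was called higher, and the list summed to 95.8 to 118 against 152 to 318. The part of these cells in the Cxcr3 and chemokine results was not tested.

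**Figure D2:**
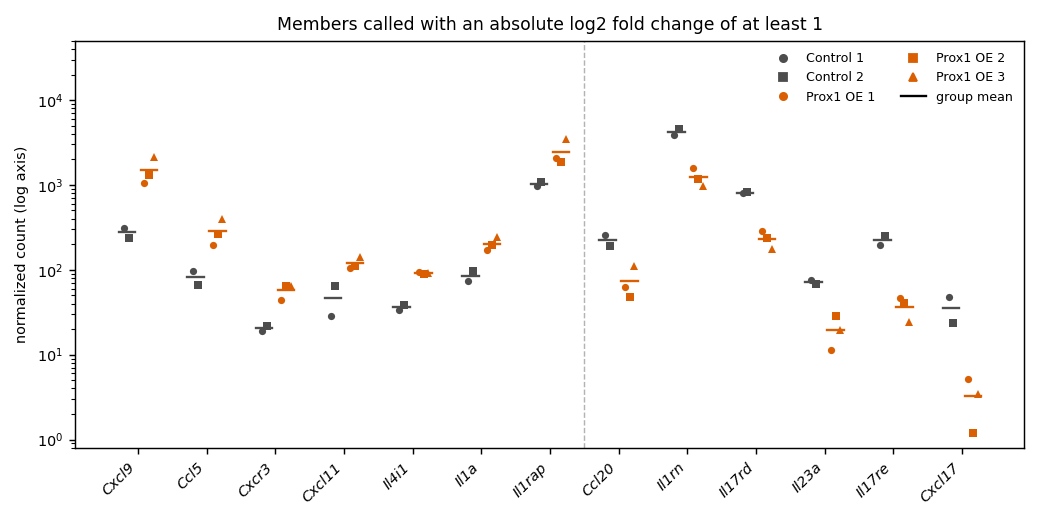
Normalized count (vertical log axis) in every library for the 13 members called with an absolute log2 fold change of at least 1, with gray points for the 2 Control libraries, orange points for the 3 Prox1 OE libraries and lines for group means. For all 13 the groups are separate, with the 7 higher members to the left of the dashed line and the 6 lower members to the right.

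Of 13 inflammatory CC chemokines, 2 rose (15.4%, against 17.1% of all genes), 1 fell (7.69%, against 16.2%) and 10 were not called, with a median log2 fold change of 0.50. Calls were thus no more frequent in this group than over all genes. Ccl5, which attracts T cells and monocytes, was at 97.8 and 67.0 normalized counts in Control and at 196, 262 and 396 in Prox1 OE. Its lowest Prox1 OE library was about 2 times the higher Control library, and the log2 fold change was 1.74 (SE 0.33, adjusted p = 0.00804; 0.0653 without Control replicate 2). Ccl9, a mouse chemokine that acts on CCR1, had the highest mean count of this group, at 2678 and 2664 in Control and 4370, 4747 and 6575 in Prox1 OE. It rose with a log2 fold change of 0.95 (SE 0.18, adjusted p = 0.00811; 0.0702 and 0.0556 without Control replicates 1 and 2), and its groups did not overlap. Ccl2, the main attractant of monocytes, fell by 1.00 on the log2 scale (SE 0.19, adjusted p = 0.00787; 0.0993 without Control replicate 1), from 1246 and 979 to 668, 517 and 487. Ccl12, its close relative and neighbor on chromosome 11, was at 68.2 and 70.4 in Control and at 47.0, 34.2 and 31.2 in Prox1 OE, with an adjusted p of 0.0605. It was called lower without Prox1 OE replicate 1 (-1.06, adjusted p = 0.0256), with limma without the trend (0.0375) and under scaling by total reads (0.0148). The macrophage inflammatory proteins Ccl3 and Ccl4 had log2 fold changes of 0.65 and 0.20 and the eosinophil attractant Ccl24 0.80, all without a call. The value of Ccl4 turned to -0.22 under scaling by total reads. Leaving out a library moved Ccl3 between 0.22 and 1.09 and Ccl24 between 0.25 and 1.34.

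None of the 5 CC receptors was called by limma with the trend, edgeR or DESeq2 (0 of 5, with 1 at an unadjusted limma p under 0.05). Ccr9 and Ccr3, both low, had log2 fold changes of 1.40 (adjusted p = 0.0808) and 0.79 (adjusted p = 0.187). Ccr3 was called higher with limma without the trend (adjusted p = 0.0378). Ccr1, a receptor of monocytes and neutrophils, had a log2 fold change of -0.77 (adjusted p = 0.137; 0.0364 without Prox1 OE replicate 1 and 0.0335 under scaling by total reads). Ccr7, which brings dendritic cells and naive T cells to lymphoid tissue, had one of 0.94 (adjusted p = 0.131; 0.0136 without Prox1 OE replicate 1). Kupffer cell markers were higher in these libraries, with 4 of 6 called (Cd5l, C1qa, Clec4f and Vsig4) and a summed level of 11080 to 13513 in Control and 22972 to 33504 in Prox1 OE. Of the 6 monocyte and macrophage markers, none was called higher and Itgam was called lower, and the list summed to 14776 to 20096 against 20672 to 37940. The part of these cells in the CC chemokine values was not tested.

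Ccl20 is made by epithelium and attracts CCR6-bearing dendritic cells and lymphocytes, and its promoter is a known NF-κB target. The RefSeq window at chr1:83116516-83116815, plus strand, is shown because Ccl20 was the chemokine of the mucosal group that fell, and the window of Cxcl1, at chr5:90890995-90891294, plus strand, because Cxcl1 shares the κB motif and was not called. Capitals mark κB matches.
Ccl20: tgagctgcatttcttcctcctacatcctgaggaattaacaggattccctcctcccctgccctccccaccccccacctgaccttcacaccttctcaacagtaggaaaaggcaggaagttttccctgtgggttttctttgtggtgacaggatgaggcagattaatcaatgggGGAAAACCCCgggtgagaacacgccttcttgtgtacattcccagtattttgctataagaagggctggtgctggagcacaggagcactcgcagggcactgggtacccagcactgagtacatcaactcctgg
Cxcl1: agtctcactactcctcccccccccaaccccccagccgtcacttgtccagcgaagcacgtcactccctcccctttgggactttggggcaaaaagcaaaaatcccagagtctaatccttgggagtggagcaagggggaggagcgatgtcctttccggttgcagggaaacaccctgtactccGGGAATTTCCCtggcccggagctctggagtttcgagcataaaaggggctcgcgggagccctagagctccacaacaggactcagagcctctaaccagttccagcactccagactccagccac
The Ccl20 match spanned -80 to -71, and the Cxcl1 window held overlapping matches at -71 to -62 and -70 to -61.

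Ccl20 was at 256 and 192 normalized counts in Control and at 62.4, 47.2 and 110 in Prox1 OE. The groups did not overlap, and Ccl20 fell by 1.68 on the log2 scale (SE 0.37, adjusted p = 0.0140; 0.128 and 0.0572 without Control replicates 1 and 2). Its receptor Ccr6 was under the minimum, with 0 to 3.54 normalized counts per library. Of the other 4 homeostatic or mucosal CC chemokines, Ccl27a was called. It was at 383 and 363 in Control and at 481, 653 and 571 in Prox1 OE, with a log2 fold change of 0.60 (SE 0.17, adjusted p = 0.0351), which was 0.16 when libraries were scaled by total reads (adjusted p = 0.520). The call was also lost without either Control library (adjusted p = 0.176 and 0.196) or without Prox1 OE replicate 2 (0.0966) or 3 (0.0787). Ccl27a has a near-identical copy, Ccl27b, which was listed at 0, and its annotated span overlaps the end of Il11ra1 on the other strand, so that its count is uncertain. Ccl19, Ccl25 and Ccl28 had log2 fold changes of 0.82, 0.19 and -0.51 without a call, and the last 2 turned to -0.24 (total reads) and 0.034 (without Control replicate 2).

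Among the ELR-type CXC chemokines, which attract neutrophils through CXCR2, 0 of 3 members were called by limma, edgeR or DESeq2, and 0 had an unadjusted limma p under 0.05. Cxcl1, with the highest mean count, was at 589 and 715 normalized counts in Control and at 551, 678 and 562 in Prox1 OE, and the groups overlapped (log2 fold change -0.13, SE 0.16, adjusted p = 0.586; 0.014 without Control replicate 2). Under scaling by total reads it was called lower (-0.56, adjusted p = 0.0411). Cxcl2 and Cxcl5 had log2 fold changes of -0.24 and -0.87, and Cxcr2 had one of 0.011 (SE 0.43) that ran from -0.47 to 0.49 when a library was left out. Of the 4 neutrophil markers tested, 0 were called by any of the 3 tools and 0 had an unadjusted limma p under 0.05, and Mpo and Ly6g were under the minimum.

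Of the 5 homeostatic or other CXC chemokines, 1 rose and 3 fell, against calls for 33.3% of all genes tested, and all 4 lost their call in some fits as given below. Cxcl12, the ligand of CXCR4 that retains blood progenitors and lymphocytes in tissues, was at 3603 and 4557 normalized counts in Control and at 5497, 6517 and 8971 in Prox1 OE. It rose with a log2 fold change of 0.76 (SE 0.21, adjusted p = 0.0318), and the groups did not overlap. The log2 fold change was 0.33 under scaling by total reads (adjusted p = 0.149), and the call was lost without Control replicate 1 (0.228), Control replicate 2 (0.0740) or Prox1 OE replicate 2 (0.0807). Cxcr4 moved oppositely to its ligand, from 1145 and 1049 in Control to 646, 577 and 656 in Prox1 OE. It fell by 0.81 on the log2 scale (SE 0.13, adjusted p = 0.00524; 0.0817 without Control replicate 1), with no overlap.

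Cxcl16, a membrane-bound chemokine that binds CXCR6 on T cells and natural killer T cells, was at 5623 and 4752 normalized counts in Control and at 2609, 3054 and 2955 in Prox1 OE. It fell by 0.85 on the log2 scale (SE 0.13, adjusted p = 0.00407; 0.0602 without Control replicate 1). Cxcr6, its receptor, was at 20.5 and 17.8 in Control and at 36.8, 30.7 and 55.6 in Prox1 OE, with no overlap but no call (log2 fold change 1.02, SE 0.38, adjusted p = 0.0745). The ratio of Cxcl16 to Cxcl12 normalized counts was 1.56 and 1.04 in Control and 0.475, 0.469 and 0.329 in Prox1 OE, lower in every Prox1 OE library (exact permutation p = 0.1, the smallest possible). Stellate cell and fibroblast markers summed to 83220 to 88563 in Control and 50070 to 58604 in Prox1 OE, with Col1a1 and Col3a1, which made up most of the sum, called lower and Lrat higher. The other 4 markers of that list (Lrat, Des, Dcn and Pdgfrb) together went the other way, at 9065 and 9604 normalized counts in Control and 10748, 10332 and 11177 in Prox1 OE. Bile duct markers summed to 761956 to 833391 against 527914 to 715668, with 5 of 8 called lower. The bile duct sum was mostly Spp1 (784749 and 712010 in Control and 587974, 688825 and 509317 in Prox1 OE), which was not called (log2 fold change -0.34, adjusted p = 0.514), whereas Krt19 had a log2 fold change of -2.41. The part of these cells in the CXC values was not tested.

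Cxcl14, a chemokine of epithelia, fell by 0.74 on the log2 scale (SE 0.17, adjusted p = 0.0165), and the call was lost without Control replicate 1 (0.0546), Control replicate 2 (0.176) or Prox1 OE replicate 2 (0.0528). Cxcl17, a mucosal chemokine, was at 47.7 and 23.7 normalized counts in Control and at 5.11, 1.18 and 3.47 in Prox1 OE. It fell by 3.15 on the log2 scale (SE 0.64, adjusted p = 0.0101; 0.0914 without Control replicate 1), or by 1.75 with a pseudocount of 10 (adjusted p = 0.00771). The Prox1 OE values stood for no more than 5 reads each, and Cxcl17 reached the minimum mean through the Control libraries.

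**Figure D3:**
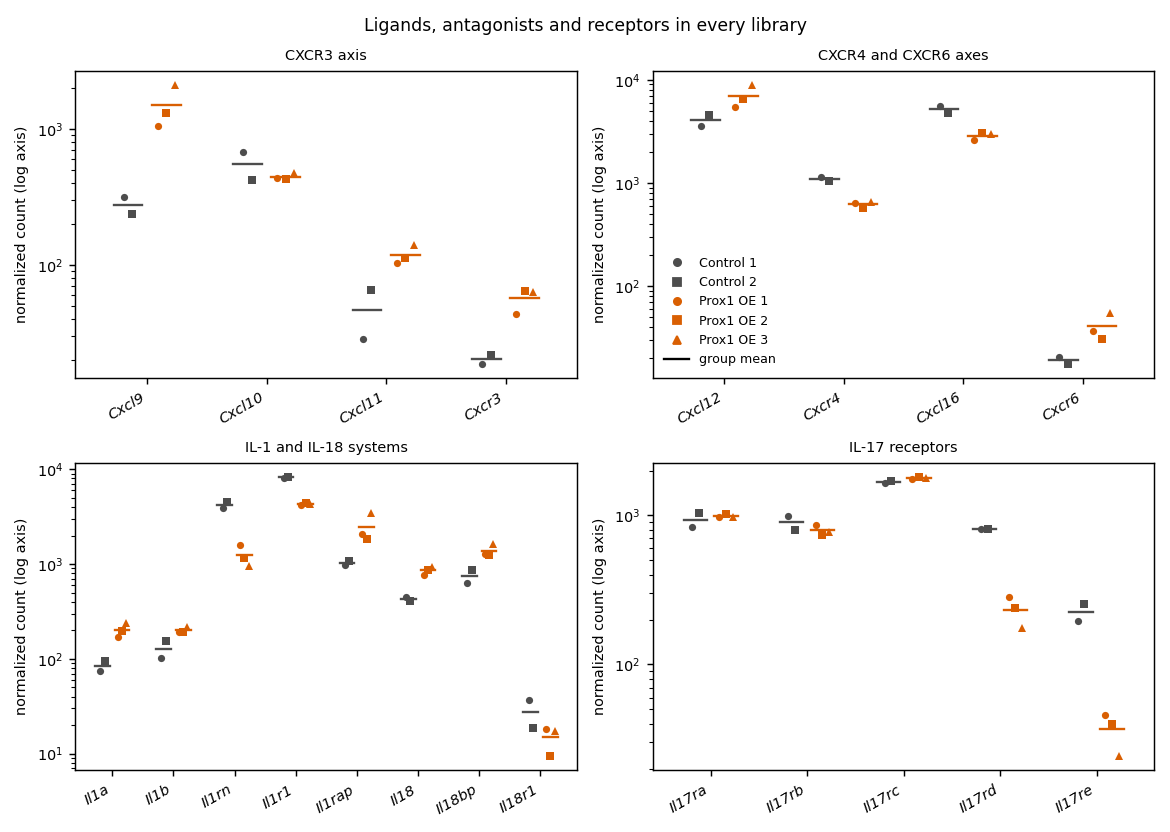
Normalized count (vertical log axes) in every library for ligands, antagonists and receptors of the CXCR3 axis, the CXCR4 and CXCR6 axes, the IL-1 and IL-18 systems and the IL-17 receptors, with gray Control points, orange Prox1 OE points and lines for group means. Cxcl9 crosses Cxcl10 between the groups, Il1rap moves toward Il1r1, and Il17rd and Il17re separate from Il17ra, Il17rb and Il17rc.

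The IL-1 family comprises agonists, a receptor antagonist, a decoy receptor and a co-receptor chain. Il1rn, the antagonist that occupies the IL-1 receptor without signaling, had the highest mean count of the ligands and antagonists of the family, at 3901 and 4504 normalized counts in Control and at 1604, 1161 and 959 in Prox1 OE. It fell by 1.79 on the log2 scale (SE 0.21, adjusted p = 0.00259), and the call held when any library was left out (adjusted p of at most 0.0299). Il1a, an agonist, was at 73.9 and 95.8 in Control and at 172, 198 and 241 in Prox1 OE, and rose with a log2 fold change of 1.25 (SE 0.24, adjusted p = 0.00872; 0.101 without Control replicate 1). Il1b, the agonist that inflammasomes process, was at 101 and 153 in Control and at 193, 192 and 219 in Prox1 OE, with no overlap and an adjusted p of 0.0593 (0.0375 with DESeq2). The ratio of Il1rn to Il1a normalized counts was 52.8 and 47.0 in Control and 9.34, 5.86 and 3.99 in Prox1 OE (exact permutation p = 0.1, the smallest possible). Per length, Il1rn was at 46.7 and 49.9 TPM in Control and at 13.1, 8.94 and 6.35 in Prox1 OE. Il1a was at 2.48 and 2.98 and at 3.93, 4.28 and 4.47, and Il1b was at 3.51 and 4.91 and at 4.58, 4.30 and 4.20. The antagonist thus stayed above each agonist taken singly in every library, by a smaller margin with Prox1. In Prox1 OE replicate 3, however, Il1a and Il1b together exceeded Il1rn.

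Il1r1, the signaling IL-1 receptor, was at 8097 and 8295 normalized counts in Control and at 4170, 4364 and 4252 in Prox1 OE. It fell by 0.94 on the log2 scale (SE 0.10, adjusted p = 0.00242), with a spread within each group far smaller than the difference. Il1rap, the shared co-receptor chain that IL-1, IL-33 and IL-36 receptors need, went from 978 and 1088 to 2096, 1838 and 3432. It rose with a log2 fold change of 1.20 (SE 0.25, adjusted p = 0.0116; 0.0939 and 0.0546 without Control replicates 1 and 2). The ratio of Il1rap to Il1r1 normalized counts was 0.121 and 0.131 in Control and 0.503, 0.421 and 0.807 in Prox1 OE (exact permutation p = 0.1, the smallest possible). The decoy receptor Il1r2 and the IL-36 receptor Il1rl2 had log2 fold changes of -0.62 and -0.61 without a call. Both were called lower under scaling by total reads (adjusted p = 0.0230 and 0.0318), and Il1rl2 also without Prox1 OE replicate 1 (0.0250).

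Il18, which drives interferon-γ production by T and NK cells, was at 448 and 407 normalized counts in Control and at 764, 867 and 942 in Prox1 OE, and rose with a log2 fold change of 1.00 (SE 0.15, adjusted p = 0.00388). Il18bp, the secreted protein that neutralizes it, rose as well, with a log2 fold change of 0.89 (SE 0.19, adjusted p = 0.0112; 0.116 without Control replicate 1). The receptor chains Il18r1 and Il18rap had log2 fold changes of -0.82 and 0.33 and were not called, the latter turning to -0.087 under scaling by total reads. Il33, an alarmin of epithelium and stroma, had one of -0.53 (adjusted p = 0.0813), which passed the threshold without Prox1 OE replicate 1 (-0.66, adjusted p = 0.0358) and under scaling by total reads (-0.96, 0.0112), and its receptor Il1rl1 was under the minimum.

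IL-17 receptors pair the shared chain IL-17RA with a second chain that sets the ligand. Il17re, whose product binds IL-17C on epithelium, was at 195 and 253 normalized counts in Control and at 46.0, 40.1 and 24.3 in Prox1 OE. It fell by 2.61 on the log2 scale (SE 0.34, adjusted p = 0.00287), with no overlap and with the call kept when any library was left out. Il17rd, a chain also known as Sef that dampens FGF signaling, was at 812 and 816 in Control and at 285, 240 and 176 in Prox1 OE, and fell by 1.82 on the log2 scale (SE 0.22, adjusted p = 0.00263). Il17rc, the chain for IL-17A and IL-17F, was at 1655 and 1700 in Control and at 1757, 1811 and 1778 in Prox1 OE. Its log2 fold change of 0.087 (SE 0.11, adjusted p = 0.559) turned to -0.34 under scaling by total reads, without a call in either. Il17ra (log2 fold change 0.091) and Il17rb (-0.18) were not called either, but under scaling by total reads they were at -0.34 and -0.61 and Il17rb was called lower (adjusted p = 0.0274).

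Il17re and Il17rc are neighbors on the same strand of chromosome 6. The ratio of Il17re to Il17rc normalized counts was 0.118 and 0.149 in Control and 0.0262, 0.0222 and 0.0137 in Prox1 OE (exact permutation p = 0.1, the smallest possible). Of the 2 ligands, neither passed the main test or those of edgeR and DESeq2, and both had an unadjusted limma p under 0.05. Il17d had the highest mean count, at 13.1 and 16.1 in Control and at 28.6, 24.8 and 33.6 in Prox1 OE, with a log2 fold change of 0.94 (SE 0.37, adjusted p = 0.0870; 0.0273 with limma without the trend). Il25, the ligand of IL-17RB made by tuft cells, was at 19.7 and 37.3 in Control and at 8.18, 10.6 and 0 in Prox1 OE, with an adjusted p of 0.0992. It was called lower with a pseudocount of 10 (adjusted p = 0.0435) and under scaling by total reads (0.0368). Il17c, the ligand of IL-17RE, stayed at 0 to 3.07 normalized counts per library, and Il17a had no read in any library.

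Il23a encodes the p19 subunit of IL-23, which maintains IL-17-producing lymphocytes. It was at 75.6 and 67.8 normalized counts in Control and at 11.2, 28.3 and 19.7 in Prox1 OE. The groups did not overlap, and Il23a fell by 1.90 on the log2 scale (SE 0.43, adjusted p = 0.0153; 0.117 and 0.0798 without Control replicates 1 and 2). Its partner subunit Il12b was under the minimum, at 3.29 and 0.848 in Control and at 9.20, 14.2 and 8.10 in Prox1 OE, and its receptor Il23r did not exceed 2.46. The other ligands of this group, Il6 and Il11, had log2 fold changes of -1.03 and -1.67 without a call (adjusted p = 0.225 and 0.0536), and a single Control value of 104 set the mean of Il11. Count tests called Il11 lower (adjusted p = 0.0321 with edgeR and 0.00852 with DESeq2), as did scaling by total reads (0.0122). Its log2 fold change was -2.60 without Control replicate 1 and -0.74 without Control replicate 2, the library with the value of 104.

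Il6st, the gp130 chain through which IL-6, IL-11, LIF and oncostatin M signal, was at 8483 and 7842 normalized counts in Control and at 6987, 6124 and 6303 in Prox1 OE. Its groups did not overlap, but the log2 fold change of -0.34 (SE 0.12) missed the threshold at an adjusted p of 0.0616, and it was called without Prox1 OE replicate 1 (-0.39, adjusted p = 0.0212), by DESeq2 (-0.33, adjusted p = 0.0342) and under scaling by total reads (-0.77, adjusted p = 0.00390). Il11ra1 rose with a log2 fold change of 0.63 (SE 0.19, adjusted p = 0.0386), which was 0.20 under scaling by total reads (adjusted p = 0.383). Without any 1 of 4 libraries, both of Control and Prox1 OE replicates 2 and 3, its adjusted p ran from 0.0923 to 0.174. The near-identical copy Il11ra2 was listed at 0, so that its count is uncertain. Il27ra, the receptor through which IL-27 restrains T cells, rose with a log2 fold change of 0.84 (SE 0.22, adjusted p = 0.0249), which was 0.42 under scaling by total reads (adjusted p = 0.191). Without Control replicate 1, Control replicate 2 or Prox1 OE replicate 3 its adjusted p was 0.114, 0.187 and 0.0691.

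In the common gamma chain group, Il2rg, the chain that IL-2, IL-4, IL-7, IL-15 and IL-21 receptors share, was at 162 and 157 normalized counts in Control and at 270, 278 and 316 in Prox1 OE. It rose with a log2 fold change of 0.85 (SE 0.18, adjusted p = 0.0116), which was 0.42 under scaling by total reads (adjusted p = 0.121) and lost its call without either Control library (0.105 and 0.0984). Il13ra1, a chain of the IL-4 and IL-13 receptor on nonlymphoid cells, fell by 0.41 on the log2 scale (SE 0.12, adjusted p = 0.0352). The call was lost without Control replicate 1 (0.137), Control replicate 2 (0.257) or Prox1 OE replicate 2 (0.0889). Il4ra, the receptor of the group with the highest mean count, was at 1908 and 2373 in Control and at 2410, 2284 and 2414 in Prox1 OE. Its log2 fold change of 0.15 (SE 0.13) turned to -0.28 under scaling by total reads, and neither was called. Il15, which sustains NK and memory T cells, was at 176 and 157 in Control and at 161, 164 and 230 in Prox1 OE, and overlapped (log2 fold change 0.13, -0.29 under scaling by total reads, -0.033 without Prox1 OE replicate 3). Its presenting receptor Il15ra had a log2 fold change of 0.41 (adjusted p = 0.0979; 0.0232 without Prox1 OE replicate 1), which was -0.024 under scaling by total reads.

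Il10ra, the ligand-binding chain of the receptor for the anti-inflammatory IL-10, rose with a log2 fold change of 0.58 (SE 0.16, adjusted p = 0.0272), which was 0.15 under scaling by total reads (adjusted p = 0.547). The call was lost without Control replicate 1 (0.103), Control replicate 2 (0.215) or Prox1 OE replicate 3 (0.0591). Il10rb, the chain shared with IL-22 receptors, was at 1525 and 1349 normalized counts in Control and at 1548, 1395 and 1558 in Prox1 OE, and its groups overlapped. Its log2 fold change of 0.063 (SE 0.12) turned to -0.37 under scaling by total reads, without a call in either.

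Of the remaining members, Il4i1 is secreted by myeloid cells and was at 33.7 and 39.0 normalized counts in Control and at 93.0, 88.5 and 92.6 in Prox1 OE. It rose with a log2 fold change of 1.31 (SE 0.25, adjusted p = 0.00880; 0.0944 and 0.0521 without Control replicates 1 and 2), and the Prox1 OE values lay closely together. Il16, a chemoattractant of CD4+ cells, rose with a log2 fold change of 0.66 (SE 0.16, adjusted p = 0.0182), which was 0.23 under scaling by total reads (adjusted p = 0.346) and lost its call without either Control library (0.114 and 0.155). Il34, a second ligand of the receptor CSF1R that maintains Kupffer cells, was at 575 and 517 in Control and at 459, 312 and 341 in Prox1 OE. Its groups did not overlap, and the log2 fold change of -0.58 (SE 0.20) missed the threshold (adjusted p = 0.0619), which it passed without Prox1 OE replicate 1 (-0.74, adjusted p = 0.0109), with DESeq2 (-0.55, adjusted p = 0.0422) and under scaling by total reads (-1.01, adjusted p = 0.00823).

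Levels were compared between genes in TPM. In Control, Cxcl16 had the highest mean TPM of the members (110), followed by Il1r1 (82.1), Ccl2 (62.7) and Ccl9 (56.0). In Prox1 OE, Ccl9 led with 70.1, followed by Cxcl16 (39.3), Cxcl12 (34.8) and Il18 (34.2). Single Control libraries of Cxcl16 were at 123 and 96.5 TPM and single Prox1 OE libraries at 39.0, 43.1 and 35.8. Ccl9 was at 58.3 and 53.7 TPM in Control and at 64.8, 66.4 and 79.1 in Prox1 OE, and Cxcl16 led the members in both Control libraries and Ccl9 in all Prox1 OE libraries.

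Members were chained into a cluster where neighboring starts lay within 1000000 bases, which gave 14 clusters with 43 members, and 41 members stood alone. In the main fit 9 of the 14 clusters held a called member, a count for which no background of other genes was taken. Only 4 held 2 or more (Ccl5 and Ccl9, Il11ra1 and Ccl27a, Cxcl9 and Cxcl11, Il2rg and Cxcr3). Calls in both directions could thus have been seen in those 4 alone, where there were 0. A call beside a missed call does not show that neighbors differed, and log2 fold changes are given for that reason. In the Ccl cluster on chromosome 11 that starts with Ccl2, Ccl2 fell while Ccl7, Ccl11, Ccl12 and Ccl8 were not called, the last with a log2 fold change of 1.04 (SE 0.46), and in the neighboring cluster Ccl5 and Ccl9 rose while Ccl6, Ccl3 and Ccl4 were not called. In the receptor cluster on chromosome 1, Il1r1 fell (-0.94, SE 0.10). On either side Il1r2 (-0.62, SE 0.27), Il1rl2 (-0.61, SE 0.30), Il18r1 (-0.82, SE 0.49) and Il18rap (0.33, SE 0.31) were not called. Il2rg and Cxcr3 rose together on chromosome X.

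**Figure D4:**
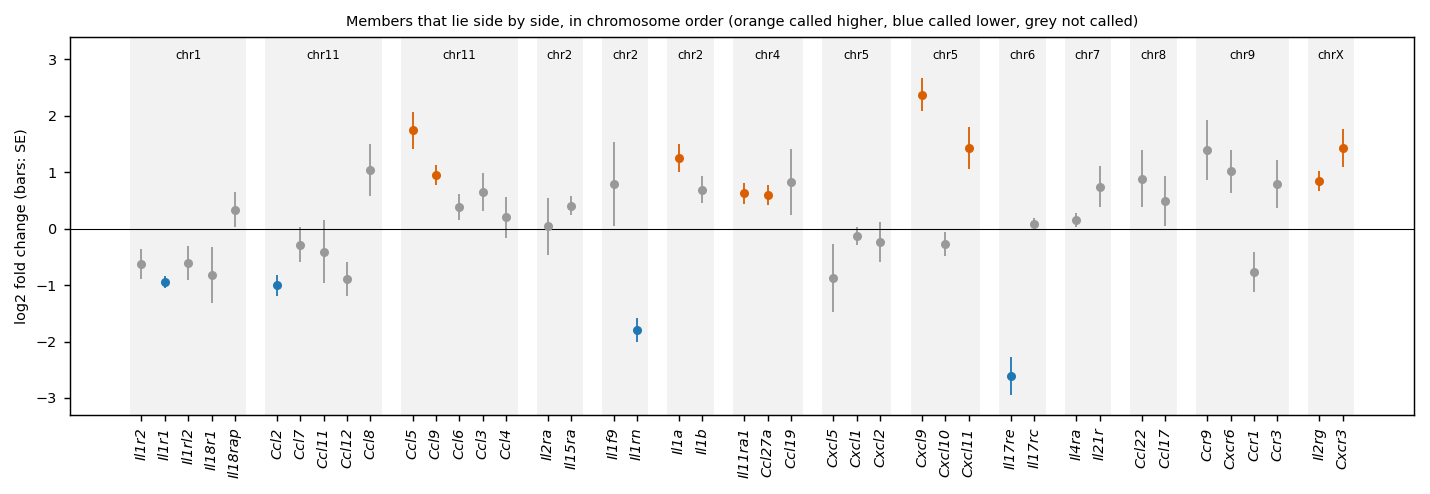
Log2 fold change of Prox1 OE over Control with its standard error (vertical axis) for members in the 14 clusters, in chromosome order within each shaded block. Only 4 blocks hold 2 or more called members, all orange (higher), and Cxcl9 and Il17re stand far from their neighbors Cxcl10 and Il17rc.

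RefSeq promoter windows matched 61 of the 84 members and 12257 genes in all. An ISRE was found in 11.5% of member windows (7 genes) and in 7.26% of all windows, and the 7 were Cxcl9 and Il1rap (higher), Cxcl14 (lower) and Ccl19, Ccl3, Cxcl10 and Il15ra (not called). A κB match was found in 14.8% of member windows (9 genes) and 5.06% of all, and among these Ccl9 rose, Ccl20 fell and 7 were not called. A gamma-activated site (GAS, TTCNNNGAA) was in 9.84% against 6.93%, an RBPJ motif (GTGGGAA), the letters bound by the Notch effector, in 6.56% against 6.35%, and letters of an HNF4A site (CAAAGNNCA) in 4.92% against 5.55%. RBPJ and κB matches can overlap, since both may contain GGGAA.

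Genes that act next to the members were listed by pathway. Their counts stand against 17.1% of all genes called higher and 16.2% lower. Of 15 other chemokine genes tested, 3 were called higher and 2 lower (median log2 fold change 0.15), a share of 33.3% that equalled the share over all genes. Rarres2, which encodes chemerin, a liver-made attractant, rose with a log2 fold change of 1.60 (SE 0.27), and Ackr4, a scavenger of CCL19, CCL21 and CCL25, rose with one of 1.89 (SE 0.32), from 14.0 and 12.7 normalized counts to 50.1, 54.3 and 52.1. Cd74, the invariant chain of MHC class II and a receptor of the cytokine MIF, was also called higher (0.93, SE 0.15). The lower calls were the scavenger receptor Ackr3 (-0.89, SE 0.21) and the membrane-anchored chemokine Cx3cl1 (-0.78, SE 0.14). Of these 5 genes Ackr4 kept its call in every fit that tested it, and the list held 2 higher and 0 lower calls without Control replicate 1 and 3 and 1 without Control replicate 2 or without Prox1 OE replicate 2.

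Of 23 genes of the MYD88 and NF-κB pathway, 2 were called higher (8.70%) and 8 lower (34.8%), with a median of -0.18. Among the lower were Nfkbiz, a nuclear regulator that NF-κB itself induces (log2 fold change -1.26, SE 0.17), and Tnfaip3, a ubiquitin-editing enzyme that restrains the pathway (-1.01, SE 0.24), together with Nfkb1, Nfkb2, Relb, Nfkbia, Nfkbie and Traf6. Nfkbia and Nfkbie encode inhibitors that hold NF-κB in the cytoplasm, and Nfkb1, Nfkb2 and Relb encode its subunits. The 2 higher genes were Nfkbib, another inhibitor of that kind (log2 fold change 0.46, SE 0.11), and Ikbkg, a subunit of the kinase that marks these inhibitors for breakdown (0.51, SE 0.13), so the inhibitors did not move one way. Under scaling by total reads the log2 fold changes of Nfkbib and Ikbkg were 0.031 and 0.082 and the list held 0 higher and 14 lower calls. It held 0 and 1 without Control replicate 1, 0 and 3 without Control replicate 2, 3 and 1 without Prox1 OE replicate 2, 2 and 5 without Prox1 OE replicate 3 or with no filter on low values, 1 and 8 with the replicate block, and 1 and 2 with limma without the trend.

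Of 21 JAK and STAT genes, 4 were called higher, among them Stat2, Ptpn6 and Tyk2, and 7 lower (19.0% and 33.3%, median -0.13). Stat2 transmits interferon signals, and Ptpn6 is a phosphatase that restrains cytokine receptors. The lower calls included 6 of the 8 genes tested of the SOCS family of feedback inhibitors, Cish, Socs1, Socs2, Socs4, Socs5 and Socs7, together with Stat3. Socs2 changed most (log2 fold change -1.09, SE 0.13). Socs3, with a log2 fold change of -0.55 (adjusted p = 0.315), and Socs6, with -0.41 (adjusted p = 0.0793), were not called. The list held 0 higher and 12 lower calls under scaling by total reads, 0 and 2 without Control replicate 1, 0 and 1 without Control replicate 2, 1 and 5 without Prox1 OE replicate 2, 2 and 7 with no filter on low values, and 1 and 6 with limma without the trend, and Tyk2 turned to -0.065 under scaling by total reads.

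Of 26 other cytokine and receptor genes tested, 2 were called higher (7.69%) and 6 lower (23.1%), with a median of 0.12, and their 30.8% of calls was near the 33.3% of all genes. Tnf, the archetypal inflammatory cytokine, fell by 1.71 on the log2 scale (SE 0.21), from 624 and 559 normalized counts to 224, 158 and 163. Lif, which signals through gp130, fell by 1.57 (SE 0.33), and Osmr, the oncostatin M receptor chain that pairs with gp130, by 1.20 (SE 0.14). The other lower calls were Csf1, the macrophage growth factor (-0.86, SE 0.12), Lifr, the receptor chain for LIF (-0.50, SE 0.11), and Ifngr1, a chain of the interferon-γ receptor (-0.38, SE 0.10). The higher calls were the TNF receptor Tnfrsf1b (0.63, SE 0.15) and Csf2rb, the shared chain of the GM-CSF, IL-3 and IL-5 receptors (0.71, SE 0.21), and both were lost under scaling by total reads, which gave 0 higher and 9 lower calls. The list held 0 and 2 without Control replicate 1, 0 and 3 without Control replicate 2, 4 and 5 without Prox1 OE replicate 2 or with the replicate block, 1 and 5 without Prox1 OE replicate 3 or with limma without the trend, 1 and 6 with no filter on low values, and 6 and 6 with DESeq2. TMM or upper-quartile factors, edgeR, a mean of at least 50 and leaving out Prox1 OE replicate 1 each gave 3 higher calls in this list. Ifng was under the minimum, at 0 to 5.79 normalized counts per library.

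Marker lists of the cell types that make or sense these proteins were summed in every library, and their calls stand against the same shares over all genes. All 8 hepatocyte markers were called higher, 5 of 8 bile duct markers lower (Cldn7, Krt19, Sox9, Krt7 and Epcam), and 2 of 6 endothelial markers higher (Clec4g and Stab2), with log2 fold changes of -0.53 for Lyve1, -0.33 for Cdh5 and -0.27 for Pecam1, none of which was called. Of 5 B cell markers tested Cd79b was called higher, of 4 plasma cell markers Sdc1 and of 6 dendritic cell markers Siglech, with no lower call in these lists. The plasma cell sum was mostly Sdc1, at 9886 and 11571 normalized counts in Control and at 14290, 15124 and 15348 in Prox1 OE. The other markers of that list did not exceed 240 in any library. Of the mast cell and basophil list only Kit reached the minimum, and it was called lower. The list was at 940 to 1118 normalized counts in Control and 327 to 461 in Prox1 OE, nearly all of it Kit. Cpa3, Fcer1a, Mcpt4 and Mcpt8 did not exceed 4.63 in any library, so the sum describes Kit rather than these cells. No marker was at 0 in every library. The part of these cell types in the values of the members was not tested.

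**Figure D5:**
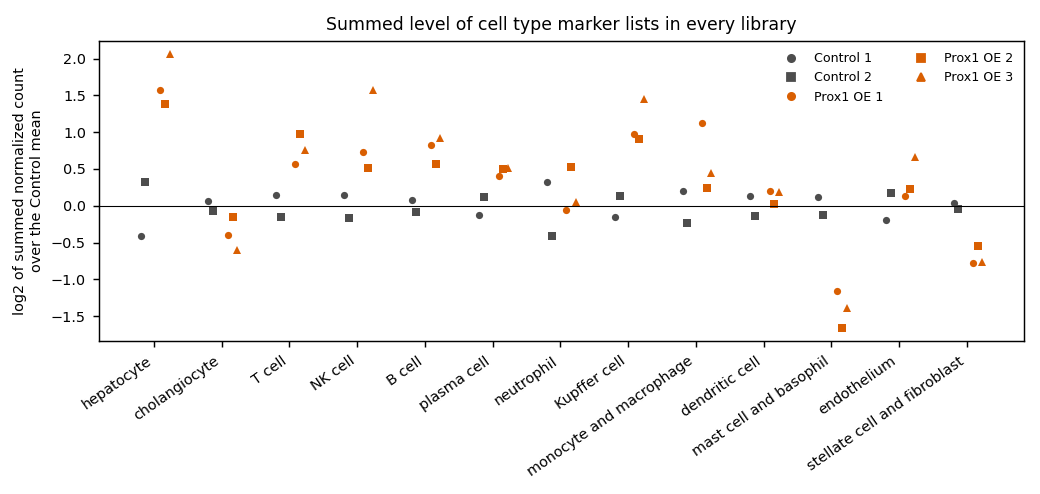
Summed normalized count of each cell type marker list in every library, as log2 over the Control mean (vertical axis), with gray points for Control and orange points for Prox1 OE. Hepatocyte, T cell, NK cell, B cell, plasma cell (mostly Sdc1), Kupffer cell and monocyte and macrophage lists lie higher in every Prox1 OE library than in Control. The bile duct list (mostly Spp1), the stellate cell and fibroblast list (mostly Col1a1 and Col3a1) and the mast cell and basophil list (mostly Kit) lie lower.

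Many members were low. The mean was under 100 normalized counts for 35 members and at least 1000 for 15. The minimum was reached through the mean of only 1 group by 5 members, Ccr9 and Ccr3 in Prox1 OE and Cxcl17, Il25 and Il6 in Control, whereas 79 reached it in both. The members just above the minimum were Il6 (mean 10.1), Ccl11 (11.9) and Il1f9 (12.5), and the genes just below it were Il13ra2 (7.79), Il1rl1 (7.76) and Il27 (7.17). Counting error alone is large at such levels, where 10 normalized counts stand for about as many reads.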

How the data were processed

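RNA-seq libraries of dissected tumors were prepared by a stranded (dUTP) protocol and read as pairs. The submitters' processing notes name STAR, mm10 and DESeq2, and the counting tool and its use of strand are not given in the sources used here. Values deposited by the authors are a signal for each gene, the reads of a library over its DESeq2 size factor (normalized counts). Every value was a whole multiple of 1 read (100% within 0.001 reads), so that reads were recovered. No column of values was left unassigned (0). A second deposited table of the authors' own comparison (mean, shrunken log2 fold change, p-values and adjusted p-values with and without hypothesis weighting) was not used.

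limma 3.58.1 (R 4.3.3; lmFit, eBayes with trend) was fitted on log2(normalized count + 1) over the 17105 genes with a mean of at least 10, two-sided, with no covariate, Benjamini-Hochberg adjustment and a threshold of 0.05. These fold changes understate those of low genes. Symbols, coordinates (GRCm38) and exon lengths came from GENCODE and matched 55137 of 55397 identifiers (99.5%). Replicate libraries were distinct (chi-square of 36.2 to 115 for each degree of freedom). Alternatives were TMM, upper-quartile and total-read scaling, pseudocounts of 0.1 and 10, no minimum and a minimum of 50, limma with no trend, count tests of the recovered reads (DESeq2 1.42.0 and the quasi-likelihood test of edgeR 4.0.16), a replicate block, and each library left out. The procedure was tested on simulated data.

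Members and lists were chosen with earlier results of these data known. Values in every library were given for called members with an absolute log2 fold change of at least 1 and the highest mean of each role group, and other members were named with their ligand or receptor. A few items are not reported here. Pathway genes were given fold changes when called with a change of at least 1, as were some smaller calls and the uncalled Socs3 and Socs6. The other named calls were given without a fold change of the main fit. Ratios and the promoters shown were chosen after values were seen.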

Additional observations from a re-analysis of the deposited data

How the results depend on the processing

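The 2 counts of called members stayed within 1.5 times their value under TMM and upper-quartile factors, other pseudocounts and minimums, limma without the trend, edgeR (17 higher, 13 lower) and DESeq2 (19 and 15), but the calls of Ccl27a, Cxcl12, Il11ra1 and Il13ra1 were lost with no minimum (adjusted p 0.0547 to 0.0688) and, with Il10ra, without the trend (0.0538 to 0.0922). Scaling by total reads gave 10 higher and 25 lower, with the median of all genes at -0.44, and ended the calls of Ccl27a, Cxcl12, Il10ra, Il11ra1, Il27ra, Il2rg and Il16. Leaving out a library gave 3 to 22 higher and 5 to 18 lower. With a Control library left out, the lone one is assumed to vary like the Prox1 OE libraries. Over 620 values for 39 genes, 532 kept direction and side of the threshold, 66 fell short of it, 13 newly passed it and 9 reversed, none of them called in the main comparison. Over all 84 members, scaling by total reads turned 15 signs, all of members not called, and edgeR and DESeq2 turned Cxcl13 (-0.21 to 0.073 and 0.068). Among the genes given in every library, those reversed were Il10rb (-0.37), Il17rc (-0.34), Il15 (-0.29) and Il4ra (-0.28) with total reads, and Il15 (-0.033) with the replicate block. Leaving out a library turned Cxcl1 (range -0.26 to 0.014, Control replicate 2), Il10rb (-0.025 to 0.15, Control replicate 2), Il4ra (-0.002317 to 0.31, Control replicate 1) and Il15 (-0.033 to 0.23, Prox1 OE replicate 3). Apart from the scaling, the cause was not tested. Replicate numbers are not said to mark shared mice or batches, and same-numbered libraries deviated together little (correlations 0.14 and 0.016 over 2 pairs). A replicate block, under which Prox1 OE replicate 3 has no partner, gave 20 higher and 13 lower members. Depth limits members under 100 normalized counts most.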

Other observations

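Several genes that matched the name pattern but stayed under the minimum mean were not tested, and their values are given without a comparison. Il13ra2, a decoy receptor of IL-13, was at 1.64 and 0 normalized counts in Control and at 17.4, 11.8 and 8.10 in Prox1 OE. Il9r, the receptor of a mast cell growth factor, was at 2.46 and 1.70 in Control and at 6.14, 2.36 and 8.10 in Prox1 OE. Cxcl3, a neutrophil attractant, was at 6.57 and 8.48 in Control and at 0, 3.54 and 0 in Prox1 OE. The regulatory cytokine Il10 was at 4.93 and 1.70 in Control and at 3.07, 2.36 and 0 in Prox1 OE. The B cell follicle receptor Cxcr5 was at 1.64 and 10.2 in Control and at 6.14, 2.36 and 11.6 in Prox1 OE, and the skin-homing receptors Ccr4 and Ccr10 did not exceed 4.09 and 7.63.

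Of the 52 genes under the minimum, 22 had no read in any library. They included the type 2 cytokine Il13, the mast cell growth factors Il3 and Il9, the T cell cytokines Il17a and Il21, and the epithelial cytokines Il20 and Il24. A value of 0 allows up to 3 reads, or 2.46 to 3.54 normalized counts in these libraries, which covers counting error only.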
